A study of Mus musculus with 15 samples.

Results

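The 50 genes described here encode the Wnt ligands, the Frizzled receptors, the co-receptors, the secreted antagonists of the Sfrp, Dkk and Wif families, and a few targets, feedback regulators and nuclear factors of Wnt signaling. They were taken by symbol from the 55359 genes of the matrix, as every Wnt, Fzd, Sfrp (1 to 5) and Dkk (1 to 4) gene together with Lrp5, Lrp6, Ror1, Ror2, Ryk, Wif1, Axin2, Lef1, Tcf7, Lgr5, Nkd1, Rnf43 and Znrf3. By role they are 19 ligands, 10 receptors, 5 co-receptors, 9 secreted antagonists, 5 targets or feedback regulators and 2 nuclear factors. RNA was sequenced from 5 groups of 3 mouse samples: cultured cells of the large cell neuroendocrine carcinoma line 46LCNEC (46LCNEC_cell), cultured cells of the small cell carcinoma line 57SCLC (57SCLC_cell), subcutaneous tumors grown from each line (46LCNEC_allo and 57SCLC_allo), and normal lung (Lung). Both lines came from primary lung tumors of QKO mice, which carry floxed Rb1 and Trp53, a further floxed tumor suppressor gene and a null Rbl1. Recombination in the airways was started by Ad-CMVcre, an adenovirus with a broadly active promoter, for 46LCNEC, and by Ad-K5cre, whose keratin 5 promoter is that of basal cells, for 57SCLC. The 46LCNEC cells grew attached to dishes and the 57SCLC cells as floating aggregates in flasks. The allografts were raised with Matrigel in immunocompetent QKO mice, and Lung came from littermates of such hosts, with no genotype of its own stated. Each tumor type is a single line, and the 3 samples of a cell group are cultures of that line, so virus, line and tumor type cannot be told apart. Growth form and culture passage also differed between the lines and cannot be told apart from them.

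Wnt proteins are lipid-modified ligands that bind Frizzled receptors. With Lrp5 or Lrp6 as co-receptor they stop the destruction of β-catenin, which then switches on target genes with Lef1 and Tcf7, whereas Ror1, Ror2 and Ryk mainly serve branches that do not use β-catenin. Sfrp and Wif1 proteins hold Wnts away from their receptors and Dkk1 blocks the co-receptors, while Axin2, Nkd1, Rnf43 and Znrf3 damp the signal from inside the cell or at its surface. In the lung the pathway is known for branching, for the upkeep of alveolar stem cells and for exchange between epithelium and mesenchyme.

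Promoter sequences are shown for 6 members. Wnt3 and Wnt9b were taken as neighbors and Axin2 as a feedback gene. Lef1, Fzd7 and Dkk1 were taken from among the members whose window holds one of the letter runs searched for below. Lef1 has several windows, and the one shown was picked because it holds a match, so the matches in these sequences are no finding. RefSeq promoter windows of build GRCm38.p6 were at hand for 34 of the 50 members (42 windows of 300 bases each). The sequences give the 250 bases before the transcription start, on the gene's own strand from 5′ to 3′. Wnt3 and Wnt9b are neighbors with opposite strands, and both had more reads in 57SCLC than in 46LCNEC.
Wnt3 (chr11:103773925-103774174, plus strand): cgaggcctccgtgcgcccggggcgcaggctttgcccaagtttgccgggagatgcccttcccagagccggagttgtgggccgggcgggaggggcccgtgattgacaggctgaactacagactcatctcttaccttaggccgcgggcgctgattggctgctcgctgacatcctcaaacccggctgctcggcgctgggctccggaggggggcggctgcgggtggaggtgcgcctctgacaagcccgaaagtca
Wnt9b (chr11:103749822-103750071, minus strand): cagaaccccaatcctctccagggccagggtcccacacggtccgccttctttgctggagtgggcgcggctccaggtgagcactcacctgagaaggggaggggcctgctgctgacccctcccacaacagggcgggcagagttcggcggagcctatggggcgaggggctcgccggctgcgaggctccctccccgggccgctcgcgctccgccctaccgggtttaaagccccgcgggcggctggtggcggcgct
The feedback gene Axin2 was higher in 57SCLC_cell than in 46LCNEC_cell. The nuclear factor Lef1 was lower in 57SCLC, and 57SCLC cells almost lacked the receptor Fzd7. The antagonist Dkk1 had 0 reads in 57SCLC cells and also in both allograft groups. Capitals mark the letters CTTTGAT or CTTTGAA or CTTTGTT or CTTTGTA, or their reverse complement, which are core forms of the site bound by Lef1 and Tcf7.
Axin2 (chr11:108920099-108920348, plus strand): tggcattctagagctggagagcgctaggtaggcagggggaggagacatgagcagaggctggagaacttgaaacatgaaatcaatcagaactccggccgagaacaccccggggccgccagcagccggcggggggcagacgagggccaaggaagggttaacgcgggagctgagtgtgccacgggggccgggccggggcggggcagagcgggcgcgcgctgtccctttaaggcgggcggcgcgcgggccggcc
Lef1 (chr3:131156044-131156293, plus strand): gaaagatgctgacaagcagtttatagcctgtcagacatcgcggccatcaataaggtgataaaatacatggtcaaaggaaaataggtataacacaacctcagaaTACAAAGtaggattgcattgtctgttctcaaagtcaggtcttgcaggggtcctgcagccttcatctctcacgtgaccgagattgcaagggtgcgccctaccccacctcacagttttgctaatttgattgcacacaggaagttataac
Fzd7 (chr1:59481897-59482146, plus strand): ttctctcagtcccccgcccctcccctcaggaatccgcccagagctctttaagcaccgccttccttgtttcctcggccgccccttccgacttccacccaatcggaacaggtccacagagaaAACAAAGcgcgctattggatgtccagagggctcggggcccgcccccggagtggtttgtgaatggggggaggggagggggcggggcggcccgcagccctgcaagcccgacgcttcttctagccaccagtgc
Dkk1 (chr19:30549497-30549746, minus strand): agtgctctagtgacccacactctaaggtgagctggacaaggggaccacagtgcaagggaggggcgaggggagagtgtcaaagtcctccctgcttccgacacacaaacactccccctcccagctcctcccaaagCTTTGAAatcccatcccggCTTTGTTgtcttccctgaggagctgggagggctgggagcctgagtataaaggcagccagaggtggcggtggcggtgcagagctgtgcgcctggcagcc
In the Dkk1 sequence the letters CTTTGAA lay 117 to 111 bases and CTTTGTT 98 to 92 bases before the start. The match lay at 130 to 124 bases in Fzd7 and at 147 to 141 bases in Lef1, both on the opposite strand. The windows of Wnt3, Wnt9b and Axin2 had no match before the start, and Wnt3 had CTTTGTT at 19 to 25 bases after it. Searched on both strands, any of these letters occurred in 6 of the 42 member windows (Dkk1, Fzd7, Lef1, Wnt3, Wnt5b and Wnt11) and in 16.9% of all 32851 windows. A match is a description of the letters in this window. The member windows were richer in G and C (median 66.5%) than all windows (median 52.7%).

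Depth lay between 9480244 and 44876572 reads per sample, with the fewest in 57SCLC_allo (9480244 to 20378892). Summed over a list of 8 neuroendocrine genes, 57SCLC_cell had 67555 to 73135 and 57SCLC_allo 38887 to 42226 normalized counts, with all 8 genes at a mean of at least 50. The sum was 29343 to 32348 in 46LCNEC_cell and 3126 to 7473 in 46LCNEC_allo, where only 2 of the 8 reached that mean, Uchl1 and Ncam1. By the calls defined below, Ncam1 was lower in 57SCLC_cell than in 46LCNEC_cell and the other 7 were higher (all genes 22.2% lower and 23.9% higher). The allografts may also hold host cells, whose share was not measured. In 57SCLC_cell 8 fibroblast genes summed to 106 to 133, with at most 3 reads of Col3a1, Dcn and Lum in every flask. Their sum was 41613 to 64476 in 57SCLC_allo, 82595 to 93068 in 46LCNEC_cell, 433351 to 855317 in 46LCNEC_allo and 27912 to 33512 in Lung. Cultured 46LCNEC cells thus had these genes without a host. In 57SCLC_cell endothelial genes summed to 63.3 to 89.1 and leukocyte genes to 248 to 275. In 57SCLC_allo these sums were 2809 to 3955 and 8942 to 14836. Alveolar genes summed to 213972 or more and endothelial genes to 98188 or more in every Lung sample, against at most 2296 and 9950 in any tumor sample. Rb1 ranged over 66.6 to 99.9 in 46LCNEC_cell, 183 to 289.8 in 46LCNEC_allo, 229 to 777 in 57SCLC_cell (777 in flask C and at most 236 in the others), 244 to 469 in 57SCLC_allo and 247 to 329 in Lung. Trp53 and Rbl1 had 750.4 or more everywhere, but counts per gene do not show which exons were read. Flask C of 57SCLC_cell and the single tumors of 46LCNEC_allo stood apart in several members and are named beside them. In such bulk samples fewer cells of a type and less RNA per cell cannot be told apart.

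Of the 50 genes, 43 reached a mean of 50 normalized counts in at least 1 group, 24 of them in 57SCLC_cell, 32 in 57SCLC_allo, 31 in each 46LCNEC group and 35 in Lung. The group with the highest mean was Lung for 16 of the 43, 46LCNEC_allo for 12, 46LCNEC_cell for 6, 57SCLC_cell for 6 and 57SCLC_allo for 3. For 13 of the 16 Lung genes all 3 Lung samples lay above all 12 others. These counts were not made over all genes, so they cannot be read as particular to the members. The heat map by sample shows this ordering. Below, values are normalized counts in the order A, B, C (cells), 312, 319, 321 (46LCNEC_allo), 275, 316, 317 (57SCLC_allo) and CT3, CT4, CT5 (Lung).

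**Figure D1:**
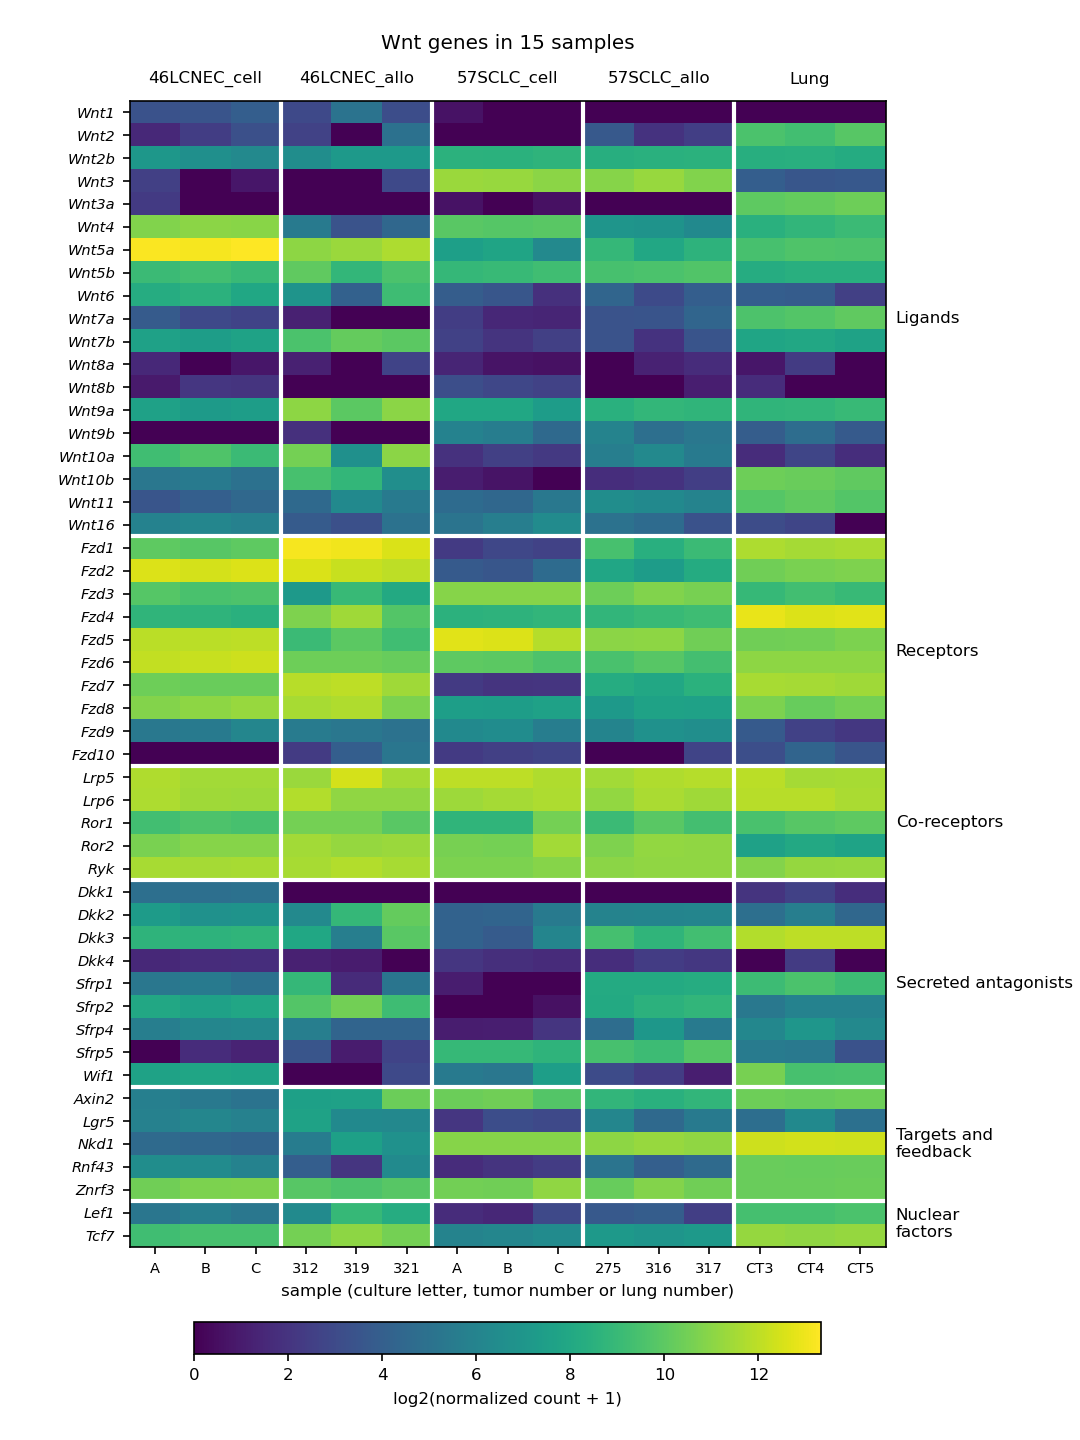
Level of each member (rows, by role) in each of the 15 samples (columns, by group), as color on the scale log2(normalized count + 1). Wnt3 and Sfrp5 stand out in the 6 57SCLC samples, Wnt5a and Fzd2 in 46LCNEC, and Wnt3a, Wnt7a and Wnt2 in Lung.

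A gene was called when its limma p, adjusted by Benjamini and Hochberg over all genes tested, did not exceed 0.01 and its fold was at least 2. Between the cell lines, 28 of the 42 members tested were called, 7 higher and 21 lower in 57SCLC_cell, against 23.9% higher and 22.2% lower among all 16920 genes tested. The members' median log2 fold change was -1.36, beside 0.00 for all genes. Between the allografts 17 of 40 were called, 7 higher and 10 lower in 57SCLC_allo (all genes 16.1% and 14.2%), with a median of -0.21 beside 0.01. On the share of calls in either direction, the cell lines thus gave 66.7% of members beside 46.1% of all genes, and the allografts 42.5% beside 30.4%.

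Against Lung, 46LCNEC_cell had 13 members higher and 20 lower of 44 (all genes 20.6% and 35%, 55.6% together), and 57SCLC_cell 8 higher and 24 lower of 43 (21.1% and 32.7%, 53.8% together). For the tumors the counts were 9 higher and 13 lower of 44 in 46LCNEC_allo (13.4% and 22.1%, 35.6% together) and 8 higher and 22 lower of 43 in 57SCLC_allo (18.9% and 26.9%, 45.8% together). These 4 comparisons share the Lung samples. The 22 calls of 46LCNEC_allo became 14 without Lung sample CT3 and 13 without CT4. Without CT5 the calls of Wnt2, Wnt2b, Fzd4, Fzd5, Fzd9, Dkk3 and Rnf43 were lost. Over all genes, this comparison had 2425 higher and 3987 lower calls. Without a Lung sample it had 2039 to 2076 higher and 2999 to 3059 lower, and without a tumor 2222 to 2464 and 3632 to 4568. From cells to allografts, 10 members rose and 6 fell of 39 in 46LCNEC (14.4% and 8.45% of all genes, 22.8% together), and 11 rose and 4 fell of 38 in 57SCLC (14.4% and 2.29%, 16.6% together). Fibroblast, endothelial and leukocyte genes rose between the same groups, and their part in these changes was not tested.

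Both differences between the lines were called for 15 members, and their direction was the same in cells and allografts for all 15. Over all genes this held for nearly all too, 4119 of the 4190 called in both, with 71 opposite, so it is not particular to the members. Wnt2b, Wnt3, Wnt9b, Fzd3, Sfrp5 and Nkd1 were higher in 57SCLC, and Wnt5a, Wnt7b, Wnt10b, Fzd1, Fzd2, Fzd7, Fzd8, Lef1 and Tcf7 were lower. They make up 53.6% of the 28 calls in cells and 88.2% of the 17 in allografts, and over all genes the calls shared in the same direction made up 52.8% and 77.5%. An interaction term over the 12 tumor samples asked whether the line difference itself changed between cells and allografts. It was called for 15 of 42 members, 12 with a higher value in allografts and 3 with a lower value (all genes 10.8% and 6.78%, 17.5% together).

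**Figure D2:**
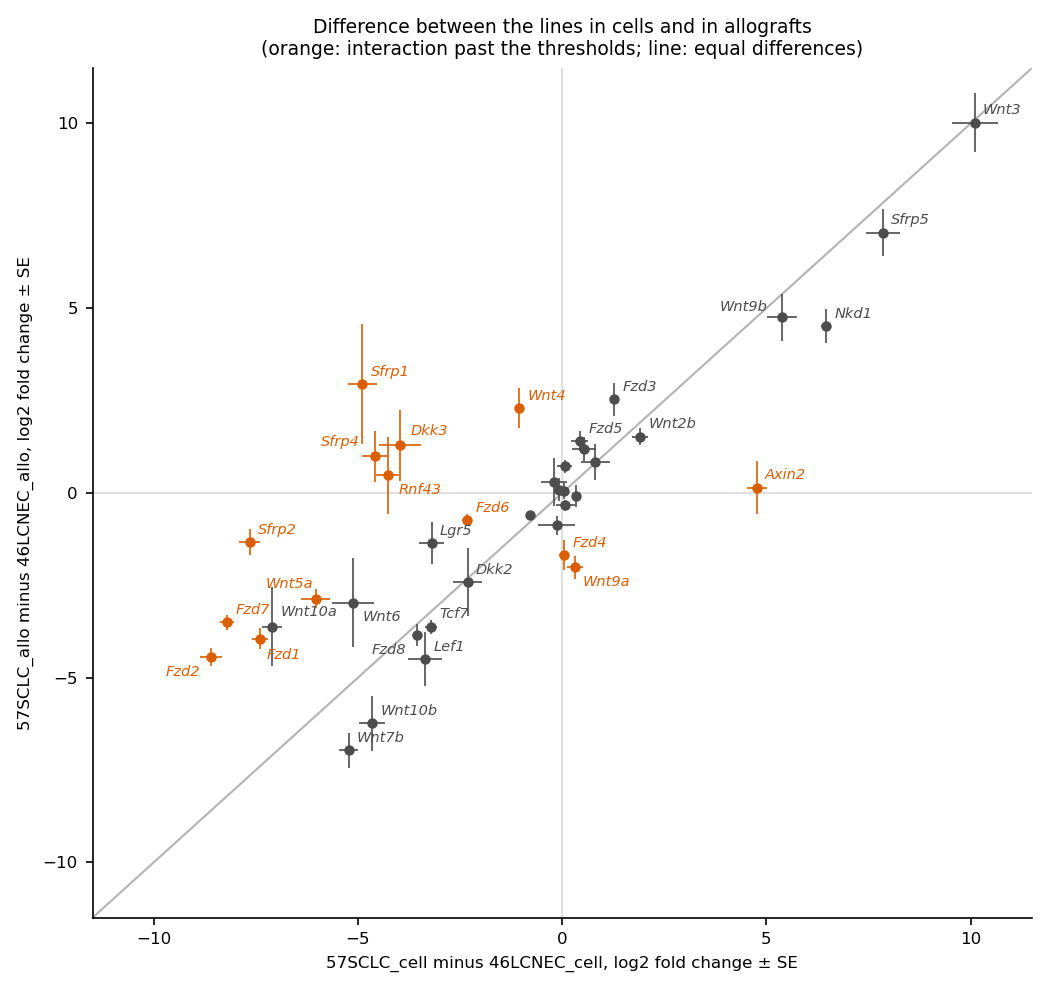
Log2 fold change of 57SCLC against 46LCNEC in cells (x axis) and in allografts (y axis) for the 40 members tested in both, with bars of 1 SE and a diagonal of equal differences. The 14 orange points are members whose difference changed between the settings by the interaction test, and most of them lie above the diagonal.

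Among the ligands, the lines held different leading genes. Genes are set side by side per kilobase of exon. The length takes all exons annotated for a gene, not the transcripts expressed, so the order is approximate. Wnt5a led in 46LCNEC_cell at 1203 ± 85.3 normalized counts (SD, n = 3). In 46LCNEC_allo Wnt9a led at 444 ± 166, with Wnt5a next at 331 ± 70.7. Wnt3 led in 57SCLC_cell at 754 ± 88.4 and in 57SCLC_allo at 656 ± 123, and Wnt3a in Lung at 426 ± 51.4. In 46LCNEC_allo the first and the next did not differ beyond their spread. Without the division by length, Wnt5a (mean 2658) lay above Wnt9a (1739) in 46LCNEC_allo, and Wnt10b (1218) above Wnt3a (1178) in Lung.

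Wnt3, a ligand that acts through β-catenin (chr11:103664976-103708853 on GRCm39, plus strand), had 2597, 2462 and 2062 normalized counts in 57SCLC_cell and 1934, 2497 and 1759 in 57SCLC_allo. It had 4.69, 0 and 0.769 in 46LCNEC_cell, 0, 0 and 6.64 in 46LCNEC_allo and 14.9, 10.97 and 11.7 in Lung. The lowest 57SCLC value, 1759, lay far above the highest value elsewhere, 14.9. The difference was called between the cell lines (log2 fold change 10.10, SE 0.56, adjusted p = 1.11e-06), between the allografts (log2 fold change 10.02, SE 0.80, adjusted p = 9.46e-05) and against Lung for both 57SCLC groups, and the interaction was not called (adjusted p = 0.963). Its neighbor Wnt9b, 24320 bases away on the opposite strand, stayed under a mean of 50 and is named after its values were seen. It had 58.4, 49.5 and 22.9 in 57SCLC_cell, 62.2, 28.3 and 37.4 in 57SCLC_allo and 14.2, 25.9 and 12.9 in Lung, with 0 reads in every 46LCNEC_cell dish and 2.65, 0 and 0 in 46LCNEC_allo. Against the floor of 3 reads per library, 57SCLC_cell was at least 15.5-fold higher than 46LCNEC_cell (limma, adjusted p = 3.36e-06).

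Wnt2b, another β-catenin ligand, had 378, 365 and 402 in 57SCLC_cell and 333, 357 and 362 in 57SCLC_allo, close to Lung with 327, 334 and 299. It was lower in 46LCNEC_cell with 134, 100.4 and 77.6 and in 46LCNEC_allo with 90.1, 139.99 and 143. The 57SCLC samples did not overlap the 46LCNEC samples, in cells (log2 fold change 1.90, SE 0.20, adjusted p = 5.19e-05) or in allografts (log2 fold change 1.52, SE 0.23, adjusted p = 0.00166). The allograft call was lost without tumor 316 or tumor 317 (adjusted p = 0.0118 at the highest).

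Wnt5a, the main ligand of the branches without β-catenin (chr14:28226495-28249405, plus strand), had 9771, 8937 and 10296 in 46LCNEC_cell and 2119, 2605 and 3251 in 46LCNEC_allo. The 57SCLC groups had 183, 219.5 and 76.6 in cells and 464, 255 and 394 in allografts, and Lung had 706, 817 and 782. Both 46LCNEC groups lay above Lung and both 57SCLC groups below it, with no overlap and all 4 comparisons called, that of 57SCLC_allo being lost without tumor 316 or Lung sample CT4 (adjusted p = 0.0109 at the highest, log2 fold change -0.84 without tumor 316) and under edgeR, where the log2 fold change was -0.98, or with scaling by library size, where it was -0.88. The gap between the lines narrowed from cells (log2 fold change -6.04, SE 0.35, adjusted p = 1.32e-06) to allografts (log2 fold change -2.86, SE 0.26, adjusted p = 0.000156), and 46LCNEC tumors fell against their cells (log2 fold change -1.88, SE 0.16, adjusted p = 0.000127). Its closest relative Wnt5b varied much less, at 533, 617 and 517 in 46LCNEC_cell and 1066, 452 and 762 in 46LCNEC_allo, 478, 499.98 and 607 in 57SCLC_cell and 699, 757 and 835 in 57SCLC_allo, and 302, 345 and 338 in Lung. Of the 8 pairwise comparisons it was called only for 57SCLC_allo against Lung (log2 fold change 1.214, SE 0.11, adjusted p = 3e-05), and without tumor 319 also for 46LCNEC_allo against Lung (log2 fold change 1.46, adjusted p = 0.00115).

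Several ligands were high in 46LCNEC cells and scarce in 57SCLC cells. Wnt7b, a ligand of lung epithelium, had 199.8, 171 and 206 in 46LCNEC_cell, 764, 1173 and 992 in 46LCNEC_allo and 232, 257 and 206 in Lung, but 4.91, 3.02 and 4.69 in 57SCLC_cell and 9.58, 2.83 and 10.2 in 57SCLC_allo. It was lower in 57SCLC in cells (log2 fold change -5.23, SE 0.23, adjusted p = 2.87e-07) and in allografts (log2 fold change -6.97, SE 0.47, adjusted p = 4.75e-05), and it rose from cells to tumors in 46LCNEC (log2 fold change 2.32, SE 0.19, adjusted p = 9.52e-05). Wnt10a had 606, 810.1 and 535 in 46LCNEC_cell against 2.73, 4.82 and 3.65 in 57SCLC_cell (log2 fold change -7.11, SE 0.25, adjusted p = 8.42e-08) and 2.24, 5.98 and 2.34 in Lung. The allografts had 1482, 104 and 2029 in 46LCNEC_allo and 50.3, 76.4 and 41.99 in 57SCLC_allo, where the rise from cells was called (log2 fold change 3.57, SE 0.34, adjusted p = 7.45e-05). Tumor 319 held the low value of 46LCNEC_allo, and the allograft difference was not called with it (log2 fold change -3.62, SE 1.08, adjusted p = 0.0264) but was without it (log2 fold change -4.97, adjusted p = 0.00012). Wnt6, which lies 5699 bases upstream of Wnt10a on chromosome 1, had 300.2, 383 and 241 in 46LCNEC_cell and 14.2, 10.9 and 2.61 in 57SCLC_cell (log2 fold change -5.13, SE 0.51, adjusted p = 3.64e-05). In the tumors it had 117, 16.8 and 586 in 46LCNEC_allo, lowest in tumor 319 as for Wnt10a, 19.2, 7.08 and 14.8 in 57SCLC_allo and 14.9, 13.96 and 4.68 in Lung.

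Wnt4 fell from culture to tumor in both lines. This ligand, which signals by either branch, had 1793, 2078 and 1975 in 46LCNEC_cell and 969, 894 and 954 in 57SCLC_cell, but only 42.4, 9.47 and 21.02 in 46LCNEC_allo and 124, 116 and 80.6 in 57SCLC_allo, with 345, 433 and 548 in Lung. It fell in tumors of 46LCNEC (log2 fold change -6.50, SE 0.47, adjusted p = 5.71e-05) and of 57SCLC (log2 fold change -3.14, SE 0.18, adjusted p = 3.45e-06), and lay below Lung in both allografts and above it in both cell groups. Wnt9a went the other way in 46LCNEC, from 199.8, 153 and 172 in cells to 2139, 989 and 2088 in tumors (log2 fold change 3.23, SE 0.30, adjusted p = 0.000184). It had 249, 244 and 164 in 57SCLC_cell, 347, 454 and 423 in 57SCLC_allo and 417, 436 and 498 in Lung, and the line difference changed between cells and tumors (log2 fold change -2.32, SE 0.39, adjusted p = 0.000753). Wnt16 had 58.2, 68.4 and 56.9 in 46LCNEC_cell, 33.8, 51.3 and 84.9 in 57SCLC_cell, 13.2, 8.42 and 32.1 in 46LCNEC_allo, 31.1, 24.1 and 9.08 in 57SCLC_allo and 7.47, 5.98 and 0 in Lung. Both cell groups were above Lung by the test, 46LCNEC_cell with adjusted p = 0.000624 and 57SCLC_cell with adjusted p = 0.00299. The 57SCLC_cell calls against Lung were lost for Wnt4 without Lung sample CT3 (adjusted p = 0.00087, log2 fold change 0.94) and with all 15 samples in 1 model (adjusted p = 0.0134), and for Wnt16 without flask C (adjusted p = 0.0107).

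**Figure D3:**
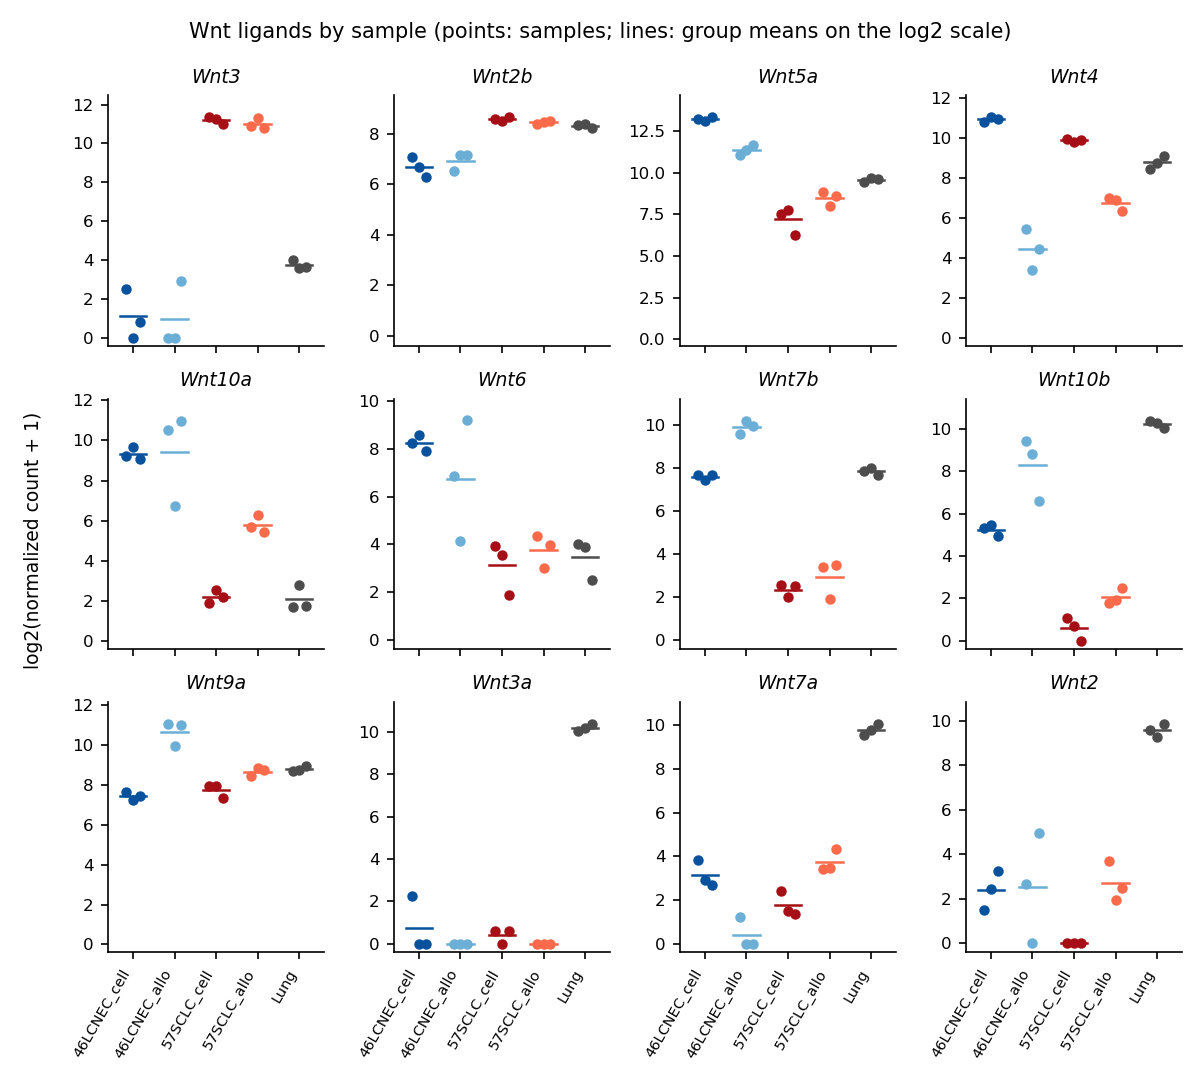
Normalized counts of ligands in each sample (points) by group, with the y axis on the scale log2(normalized count + 1) and a line at the group mean of that scale. Wnt3 is above 1700 only in 57SCLC, Wnt5a is highest in 46LCNEC_cell, and Wnt4 is lower in both allografts than in the cells of the same line.

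A further set of ligands was highest in Lung, and every Lung sample lay above all 12 tumor samples. Wnt2, a mesenchymal ligand needed for lung formation, had 754, 625 and 928 in Lung, 1.88, 4.41 and 8.46 in 46LCNEC_cell, 5.30, 0 and 29.9 in 46LCNEC_allo, 11.97, 2.83 and 4.54 in 57SCLC_allo and 0 in all 57SCLC_cell flasks, at least 461-fold lower than Lung. Wnt3a, which acts through β-catenin, had 1041, 1168 and 1325 in Lung and 0 reads in all 6 allografts, at least 338-fold lower in 46LCNEC_allo and at least 238-fold lower in 57SCLC_allo (adjusted p = 3.23e-06 and 5.83e-08). The cells had 3.75, 0 and 0 in 46LCNEC_cell and 0.545, 0 and 0.521 in 57SCLC_cell. Wnt7a had 765, 879 and 1075 in Lung against 13.1, 6.62 and 5.38 in 46LCNEC_cell and 1.32, 0 and 0 in 46LCNEC_allo, with 4.36, 1.81 and 1.56 in 57SCLC_cell and 9.58, 9.91 and 19.3 in 57SCLC_allo. Wnt11, which mostly acts without β-catenin, had 892, 1085 and 867 in Lung, 10.3, 15.5 and 21.5 in 46LCNEC_cell and 22.5, 78.9 and 42.04 in 46LCNEC_allo, with 24.00, 21.1 and 40.1 in 57SCLC_cell and 93.4, 77.9 and 61.3 in 57SCLC_allo. These 4 ligands were called lower than Lung in every tumor group, and the call of Wnt2 in 46LCNEC_allo was lost without Lung sample CT3, Lung sample CT4 or Lung sample CT5 (adjusted p = 0.0116 at the highest).

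Wnt10b, a β-catenin ligand that restrains fat cell formation, was high in Lung with 1344, 1248 and 1063 and intermediate in 46LCNEC_allo with 697, 454 and 96.2. It had 38.5, 43.04 and 29.98 in 46LCNEC_cell, 1.09, 0.603 and 0 in 57SCLC_cell and 2.39, 2.83 and 4.54 in 57SCLC_allo, and rose in 46LCNEC tumors against cells (log2 fold change 3.05, SE 0.68, adjusted p = 0.00775). That rise was lost without dish A, dish B, dish C, tumor 312 or tumor 319 (adjusted p = 0.0343 at the highest). 46LCNEC_allo was not called against Lung (adjusted p = 0.0443) but was without tumor 321 (log2 fold change -1.11, adjusted p = 0.00562). Wnt10b and Wnt1 overlap on opposite strands of chromosome 15 by 489 exon bases, and without a stated strand setting reads there cannot be assigned to either. Wnt1, Wnt8a and Wnt8b were never tested, with highest values of 32.6, 5.53 and 8.18 normalized counts in any sample.

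Among the receptors, Fzd1, Fzd2 and Fzd7 set the cell lines apart by the widest margins. They were abundant in 46LCNEC and Lung, almost absent from 57SCLC_cell, and present in 57SCLC_allo. Fzd7, a receptor of the β-catenin branch, had 3.82, 3.02 and 3.13 in 57SCLC_cell and 306, 252 and 367 in 57SCLC_allo, against 1326, 1237 and 1258 in 46LCNEC_cell, 3797, 4029 and 2720.3 in 46LCNEC_allo and 3103, 2911 and 2767 in Lung. The line difference was log2 fold change -8.21, SE 0.16, adjusted p = 7.43e-09 in cells and log2 fold change -3.50, SE 0.20, adjusted p = 2.7e-05 in allografts, and 57SCLC tumors rose against their cells (log2 fold change 6.15, SE 0.25, adjusted p = 7.16e-07). Fzd1 had 3.82, 6.03 and 5.21 in 57SCLC_cell and 692, 334 and 533 in 57SCLC_allo, against 1058, 919 and 1039 in 46LCNEC_cell, 8924, 8306 and 6102 in 46LCNEC_allo and 3264, 2923 and 3156 in Lung. It rose from cells to tumors in 46LCNEC (log2 fold change 2.93, SE 0.16, adjusted p = 1.72e-05) and in 57SCLC (log2 fold change 6.39, SE 0.31, adjusted p = 1.76e-06). Fzd2, which also binds Wnt5a, had 6399, 5732 and 6431 in 46LCNEC_cell, 6032, 4788 and 4089 in 46LCNEC_allo and 1391, 1607 and 1697 in Lung. In 57SCLC_cell it had 12.5, 10.9 and 24.5 and in 57SCLC_allo 232, 164 and 293 (log2 fold change 3.81, SE 0.35, adjusted p = 5.86e-05). The rise of these 3 receptors in 57SCLC tumors went with the rise of the fibroblast sum from at most 133 to at least 41613, and its part in the result was not tested.

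Fzd8 was lower in 57SCLC cells and tumors alike. It had 1871, 2104 and 2505 in 46LCNEC_cell, 3026, 3410.2 and 1643 in 46LCNEC_allo and 1662, 1205 and 1481 in Lung, against 179, 169 and 199 in 57SCLC_cell and 141, 204 and 196 in 57SCLC_allo. The line difference was log2 fold change -3.55, SE 0.13, adjusted p = 9.59e-08 in cells and log2 fold change -3.84, SE 0.30, adjusted p = 8.71e-05 in allografts. Fzd3, best known for axon guidance and planar polarity, was higher in 57SCLC in both settings, with 1937, 1922 and 1932 in 57SCLC_cell and 1357, 1779 and 1544 in 57SCLC_allo. It had 899.8, 733 and 779.6 in 46LCNEC_cell, 140.4, 510.5 and 269 in 46LCNEC_allo and 481, 619 and 510.4 in Lung, with no overlap between the lines and both differences called (log2 fold change 1.27, SE 0.09, adjusted p = 4.84e-06 in cells, log2 fold change 2.53, SE 0.44, adjusted p = 0.00271 in allografts). The allograft call of Fzd3 was lost without tumor 275, tumor 316 or tumor 317 (adjusted p = 0.0149 at the highest).

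Fzd5 led the receptors of 57SCLC per kilobase, at 801 ± 235 in cells and 268 ± 56.01 in tumors. By sample it had 6715, 6275 and 3695 in 57SCLC_cell, 2035, 2128 and 1413 in 57SCLC_allo, 3939.7, 3907 and 4125 in 46LCNEC_cell, 546, 998 and 609.5 in 46LCNEC_allo and 1385, 1431 and 1672 in Lung. It fell from cells to tumors in 46LCNEC (log2 fold change -2.52, SE 0.22, adjusted p = 0.000125) and in 57SCLC (log2 fold change -1.56, SE 0.24, adjusted p = 0.00132). Fzd5 shares 1257 exon bases with a gene on the opposite strand, so its count is uncertain by the same strand limit. The limit also holds for Wnt5b (1244 shared bases), and the other members given by sample, apart from Lef1, share at most 749 (Lgr5). Fzd6, known for planar polarity, had 4481, 4675 and 5022 in 46LCNEC_cell and 1324, 1331 and 1189 in 46LCNEC_allo, 1040.3, 1012 and 782 in 57SCLC_cell and 725, 947 and 659 in 57SCLC_allo, and 2169.9, 2136 and 2159 in Lung. It was lower in 57SCLC_cell than in 46LCNEC_cell (log2 fold change -2.33, SE 0.12, adjusted p = 6.37e-07) and fell in 46LCNEC tumors (log2 fold change -1.88, SE 0.10, adjusted p = 1.58e-05).

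Fzd4, a receptor of vessels that also answers Norrin, had 7507, 6359.99 and 6849 in Lung, where endothelial genes summed to 98188 to 109679, and the part of those cells in the result was not tested. The other groups had 422, 405 and 352 in 46LCNEC_cell and 1742, 2747 and 868 in 46LCNEC_allo, with 379.7, 394 and 444 in 57SCLC_cell and 431, 499.7 and 584 in 57SCLC_allo. All 4 were called lower than Lung, and it rose in 46LCNEC tumors against cells (log2 fold change 2.03, SE 0.38, adjusted p = 0.00354). For 46LCNEC_allo the call against Lung was lost without tumor 312, Lung sample CT3, Lung sample CT4 or Lung sample CT5 (adjusted p = 0.0188 at the highest), and the rise without dish A, dish B, dish C or tumor 312 (adjusted p = 0.019 at the highest). Fzd9 was low, with 39.4, 41.9 and 68.4 in 46LCNEC_cell and 45.03, 37.9 and 30.98 in 46LCNEC_allo, 79.1, 88.7 and 49.5 in 57SCLC_cell and 64.6, 108 and 95.3 in 57SCLC_allo, and 12.7, 4.99 and 3.51 in Lung, and was called higher than Lung in all 4 tumor groups, the call of 46LCNEC_allo being lost without tumor 312, tumor 319, Lung sample CT4 or Lung sample CT5 (adjusted p = 0.0224 at the highest). Fzd10 stayed at or under 36.5 in every sample.

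None of the 5 co-receptors was called between the lines, in cells (46.1% of all genes) or in allografts (30.4%), and only Ror2 was called in any of the 8 pairwise comparisons. Ror2, a receptor tyrosine kinase for Wnt5a, had 1615, 1930.3 and 1887 in 46LCNEC_cell and 2897, 2365 and 2601 in 46LCNEC_allo, with 1558, 1517 and 2887 in 57SCLC_cell and 1745, 2272 and 2215 in 57SCLC_allo, against 194, 267 and 213 in Lung. It was higher than Lung in all 4 tumor groups, from log2 fold change 3.01, SE 0.13, adjusted p = 4.83e-08 in 46LCNEC_cell to log2 fold change 3.55, SE 0.16, adjusted p = 1.16e-05 in 46LCNEC_allo. Between the lines it was not called, with log2 differences of 0.07 in cells (95% interval -0.48 to 0.62) and -0.34 in allografts (-0.67 to -0.01). The β-catenin co-receptors Lrp5 and Lrp6 ranged over all 15 samples from 2529.8 to 5641 and from 2228 to 3819.5 normalized counts. Ryk ranged from 1635 to 3602. It was lower in 57SCLC with no overlap in either setting, but short of the fold threshold. The log2 difference was -0.79 in cells (95% interval -0.98 to -0.61) and -0.59 in allografts (-0.83 to -0.35). Ror1 ranged from 416 to 1509.9, the highest value apart from tumor 312 being that of 57SCLC_cell flask C (418, 416 and 1475 in the 3 flasks). Without flask C, Ror1 was called lower in 57SCLC_cell than in Lung (log2 fold change -1.08, adjusted p = 0.000482), and without tumor 321 higher in 46LCNEC_allo than in 46LCNEC_cell (log2 fold change 1.09, adjusted p = 0.00114).

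Several secreted antagonists were low or near 0 in 57SCLC cells and rose in 57SCLC tumors. In cells, 6 of the 8 tested were lower and Sfrp5 was higher in 57SCLC (all genes 22.2% lower and 23.9% higher). Of the 6 tested in allografts Sfrp5 was called, higher (all genes 16.1% higher and 14.2% lower), and 2 others were called lower when a single tumor was left out, Sfrp2 without tumor 321 (log2 fold change -1.66, adjusted p = 0.00477) and Dkk2 without tumor 312 (log2 fold change -3.50, adjusted p = 0.00142). Sfrp2, which is typical of fibroblasts, had 0, 0 and 0.521 in 57SCLC_cell and 275, 379 and 433 in 57SCLC_allo. It had 258, 199.8 and 236 in 46LCNEC_cell, 865, 1463 and 575 in 46LCNEC_allo and 39.6, 58.8 and 58.5 in Lung. With at most 3 reads per flask no fold is given, but the difference was called against 46LCNEC_cell (adjusted p = 7.02e-08) and against 57SCLC_allo (adjusted p = 5.93e-07). Sfrp1 had 1.09, 0 and 0 in 57SCLC_cell, also at most 3 reads per flask, and 280.1, 283 and 306 in 57SCLC_allo (adjusted p = 1.24e-06). It had 38.5, 44.1 and 29.98 in 46LCNEC_cell, 470.2, 2.11 and 35.4 in 46LCNEC_allo, whose range spanned those of 46LCNEC_cell and 57SCLC_allo, and 569.6, 741 and 572 in Lung. Sfrp4 had 1.09, 1.206 and 3.13 in 57SCLC_cell and 26.3, 130.2 and 43.1 in 57SCLC_allo (log2 fold change 4.34, SE 0.59, adjusted p = 0.000613), with 50.7, 67.3 and 73.8 in 46LCNEC_cell, 50.3, 18.9 and 18.8 in 46LCNEC_allo and 71.8, 128 and 76.1 in Lung.

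Dkk3, the divergent member of its family, was highest in Lung with 3558, 4164 and 4068. In 57SCLC it had 17.5, 13.3 and 65.1 in cells and 675, 418 and 638 in tumors (log2 fold change 4.45, SE 0.53, adjusted p = 0.000276), and in 46LCNEC 403, 391 and 417 in cells and 249, 50.5 and 962 in tumors. The 4 antagonists Sfrp1, Sfrp2, Sfrp4 and Dkk3 thus rose together in 57SCLC tumors, beside the same rise of fibroblast genes, whose part was not tested. Dkk2, which modulates Lrp6, had 159, 107 and 115 in 46LCNEC_cell and 17.5, 18.7 and 43.8 in 57SCLC_cell (log2 fold change -2.32, SE 0.36, adjusted p = 0.000525). It had 75.5, 465 and 1174 in 46LCNEC_allo, 62.2, 63.7 and 66.95 in 57SCLC_allo and 28.4, 51.9 and 21.1 in Lung. Dkk1, a blocker of Lrp5 and Lrp6 named after its values were seen, had 28.1, 28.7 and 29.98 in 46LCNEC_cell and 2.99, 4.99 and 2.34 in Lung, and 0 reads in the other 9 samples. Against the floor it was at least 17.3-fold lower in 57SCLC_cell and at least 8.31-fold lower in 46LCNEC_allo than in 46LCNEC_cell. Dkk4 stayed at or under 4.25 and was not tested.

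Sfrp5 was called higher in 57SCLC in both settings. It had 494, 485 and 411 in 57SCLC_cell and 694, 569 and 898 in 57SCLC_allo, against 0, 2.21 and 1.54 in 46LCNEC_cell (at most 3 reads per dish), 10.6, 1.05 and 5.53 in 46LCNEC_allo and 45.6, 40.9 and 9.36 in Lung. Every 57SCLC sample lay above every other sample, and the gene was higher against 46LCNEC_allo (log2 fold change 7.04, SE 0.63, adjusted p = 0.000154) and against Lung in both settings. Wif1, the Wnt inhibitory factor, had 1539.8, 687 and 719 in Lung, 202, 225 and 211 in 46LCNEC_cell and 42.00, 38.00 and 177 in 57SCLC_cell, where flask C was high. It had 0, 0 and 6.64 in 46LCNEC_allo and 7.18, 4.25 and 1.13 in 57SCLC_allo, and fell from cells to tumors in 46LCNEC (log2 fold change -6.76, SE 0.78, adjusted p = 0.000453) and 57SCLC (adjusted p = 0.00268, with at most 3 reads per tumor). The fall in 57SCLC was lost without tumor 316 or tumor 317 (adjusted p = 0.0133 at the highest). The difference between the cell lines was not called (log2 fold change -1.68, SE 0.53, adjusted p = 0.0199) and was without flask C (log2 fold change -2.38, adjusted p = 7.59e-06).

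**Figure D4:**
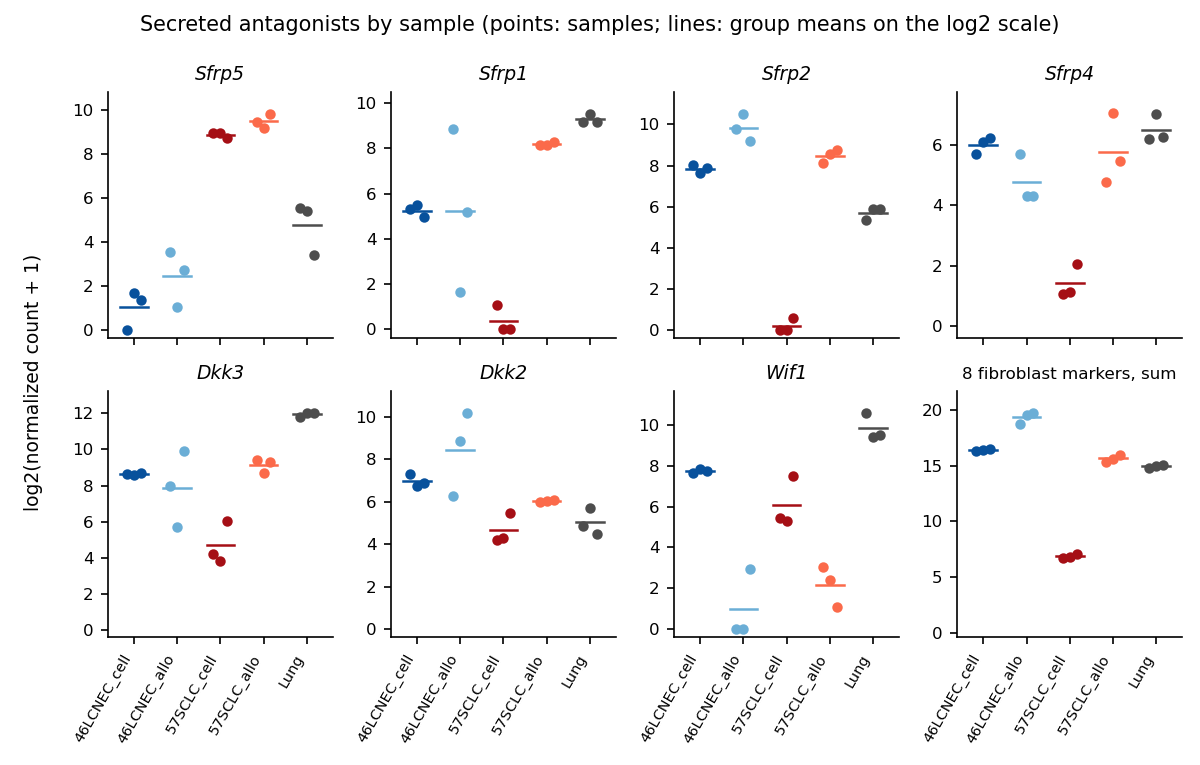
Normalized counts of the secreted antagonists in each sample (points) by group, on the scale log2(normalized count + 1) with a line at the group mean of that scale. Sfrp1, Sfrp2 and Sfrp4 are near 0 and Dkk3 is low in 57SCLC_cell, and all are higher in 57SCLC_allo, whereas Sfrp5 is above 400 in both 57SCLC groups.

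Of the 5 target and feedback genes, 4 were called between the cell lines, 2 in each direction (46.1% of all genes), and Nkd1 alone between the allografts (30.4%). Nkd1, which binds Dishevelled, had 1914, 1917 and 1939 in 57SCLC_cell, 2147, 2494 and 2246 in 57SCLC_allo and 5158, 5382 and 5267 in Lung. In 46LCNEC it had 23.5, 20.97 and 18.5 in cells and 47.7, 191 and 106 in tumors. The 57SCLC samples lay between 46LCNEC and Lung with no overlap, higher than 46LCNEC in cells (log2 fold change 6.46, SE 0.13, adjusted p = 7.73e-09) and in allografts (log2 fold change 4.52, SE 0.46, adjusted p = 0.000261). Axin2, a scaffold of the β-catenin destruction complex (chr11:108811169-108841609, plus strand), had 1305, 1385 and 856 in 57SCLC_cell and 53.5, 40.8 and 33.1 in 46LCNEC_cell (log2 fold change 4.76, SE 0.24, adjusted p = 6.11e-07). In the allografts it had 436, 351 and 439 in 57SCLC_allo and 189, 199.98 and 1309 in 46LCNEC_allo, with 1320.01, 1253 and 1361 in Lung. The allograft difference was not called (log2 fold change 0.14, SE 0.72, adjusted p = 0.878, 95% interval -1.58 to 1.87), and without tumor 321, the high one, it was (log2 fold change 1.06, adjusted p = 0.00414). Axin2 rose from cells to tumors in 46LCNEC (log2 fold change 3.11, SE 0.72, adjusted p = 0.00916) and fell in 57SCLC (log2 fold change -1.51, SE 0.19, adjusted p = 0.000395), and the interaction was called (log2 fold change -4.62, SE 0.81, adjusted p = 0.00102). Its rise in 46LCNEC was lost without dish A, dish B or dish C (adjusted p = 0.0393 at the highest) and with scaling by library size (adjusted p = 0.0114), and its fall in 57SCLC with all 15 samples in 1 model (adjusted p = 0.0409).

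Rnf43, a ubiquitin ligase that removes Frizzled from the surface, was high in Lung alone with 1251, 1197 and 1255. It had 90.1, 86.1 and 58.4 in 46LCNEC_cell and 14.6, 3.16 and 80.8 in 46LCNEC_allo, with 2.18, 3.02 and 4.17 in 57SCLC_cell and 33.5, 15.6 and 23.8 in 57SCLC_allo, lower than Lung in all 4, though in 46LCNEC_allo the call was lost without Lung sample CT3, Lung sample CT4 or Lung sample CT5 (adjusted p = 0.0112 at the highest). Between the cell lines it was lower in 57SCLC (log2 fold change -4.27, SE 0.28, adjusted p = 3.01e-06). Its relative Znrf3 was called in none of the 8 pairwise comparisons and ranged from 788 to 2229 over all samples. Lgr5, a receptor for R-spondins and a stem cell marker, had 56.3, 67.3 and 56.9 in 46LCNEC_cell and 203, 77.9 and 74.1 in 46LCNEC_allo, 3.27, 7.84 and 6.77 in 57SCLC_cell and 69.4, 22.6 and 41.99 in 57SCLC_allo, and 26.9, 79.8 and 29.3 in Lung. It was lower in 57SCLC_cell than in 46LCNEC_cell (log2 fold change -3.20, SE 0.31, adjusted p = 2.96e-05) and rose in 57SCLC tumors (log2 fold change 2.64, SE 0.47, adjusted p = 0.00275), a call lost without tumor 275 or tumor 317 (adjusted p = 0.0158 at the highest).

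**Figure D5:**
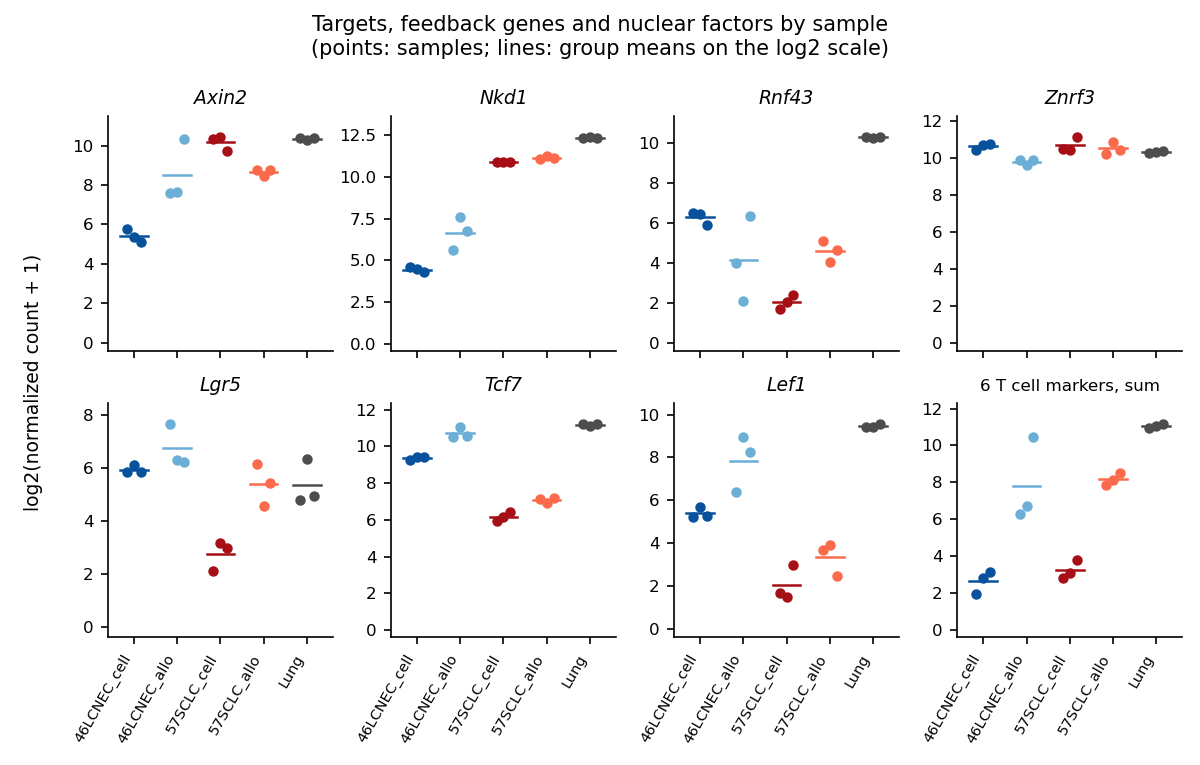
Normalized counts of the targets, feedback regulators and nuclear factors in each sample (points) by group, on the scale log2(normalized count + 1) with a line at the group mean of that scale, and the summed T cell marker genes. Nkd1 and Axin2 are higher in 57SCLC_cell than in 46LCNEC_cell, and Lef1 and Tcf7 are lower.

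Both nuclear factors were lower in 57SCLC in cells and in allografts. Tcf7, which pairs with β-catenin and also marks T cells, had 615, 698 and 687 in 46LCNEC_cell, 1469, 2133 and 1501 in 46LCNEC_allo and 2390.4, 2234 and 2359.9 in Lung, against 60.5, 69.4 and 84.4 in 57SCLC_cell and 141, 122 and 143 in 57SCLC_allo. The difference between the lines was log2 fold change -3.21, SE 0.15, adjusted p = 4.59e-07 in cells and log2 fold change -3.62, SE 0.19, adjusted p = 1.89e-05 in allografts. Lef1 had 36.6, 50.8 and 37.7 in 46LCNEC_cell and 82.1, 490.5 and 304 in 46LCNEC_allo, 2.18, 1.81 and 6.77 in 57SCLC_cell and 11.97, 14.2 and 4.54 in 57SCLC_allo, and 682, 682 and 759.7 in Lung, lower in 57SCLC in cells (log2 fold change -3.36, SE 0.41, adjusted p = 0.000113) and in allografts (log2 fold change -4.49, SE 0.73, adjusted p = 0.00212). T cell genes summed to 2.81 to 7.73 in 46LCNEC_cell, 6.03 to 13.03 in 57SCLC_cell, 75.8 to 1387 in 46LCNEC_allo, 235 to 369 in 57SCLC_allo and 1989 to 2297 in Lung. The part of T cells in the values of both nuclear factors was not tested. Lef1 shares 1518 exon bases with an antisense gene.

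Other genes of the pathway were counted from fixed lists, to be read beside 23.9% higher and 22.2% lower of all genes between the cell lines and 16.1% and 14.2% between the allografts, with medians of 0.00 and 0.01. Of the 16 members of the destruction complex and its transducers, only Dvl2 was called between the cell lines, lower in 57SCLC (log2 fold change -1.213, SE 0.07, adjusted p = 1.8e-06), and only Apc between the allografts, higher (log2 fold change 1.10, SE 0.13, adjusted p = 0.000494), and the list's median log2 fold change was -0.01 in cells and 0.04 in allografts. The secretion genes Wls, which carries Wnts to the surface, and Porcn, which attaches their lipid, were both lower in 57SCLC in cells and in allografts. Wls had 2778 ± 122 in 57SCLC_cell and 9313 ± 819.8 in 46LCNEC_cell (SD, n = 3), and Porcn 285 ± 19.4 and 1184 ± 128. Of 10 nuclear genes tested in cells, Tle4, a co-repressor, was higher and Bcl9l, Ctnnbip1 and Tcf7l2 were lower in 57SCLC. Tcf7l2, another partner of β-catenin, had 2.58 ± 1.55 in 57SCLC_cell and 1587 ± 188 in 46LCNEC_cell (log2 fold change -8.87, SE 0.30, adjusted p = 6.91e-08), and was lower in 57SCLC_allo too (log2 fold change -3.67, SE 0.25, adjusted p = 5.19e-05). In allografts 1 of 11 nuclear genes was higher and 3 were lower, and the list's median was -0.65 in cells and -0.84 in allografts.

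Of 7 target genes tested, Ccn4, Ccnd1, Cd44 and Sox9 were lower in 57SCLC both in cells and in allografts, and Tnfrsf19 was lower and Bambi and Id2 were higher in cells. That made 5 lower and 2 higher in cells (all genes 22.2% and 23.9%) and 4 lower in allografts (14.2%), with medians of -9.12 and -2.85. Ccnd1, a G1 cyclin, had 16.7 ± 6.71 in 57SCLC_cell and 9539.6 ± 1339.7 in 46LCNEC_cell. Among R-spondin genes, which strengthen the signal through Lgr receptors, Rspo1 was higher in 57SCLC and Rspo2 lower in both settings, and Lgr6 was lower in cells. Among other extracellular antagonists, Notum, which strips the lipid from Wnts, and Shisa2, which traps receptors, were higher in 57SCLC in both settings. Draxin was higher in cells, Kremen2 in allografts, and Trabd2b was lower in both. Notum ranged over 105 to 131 in 57SCLC_cell, 90.8 to 117 in 57SCLC_allo, 0 to 5.63 in 46LCNEC_cell and 0 to 5.53 in 46LCNEC_allo. Of 9 planar polarity genes, Celsr1, Celsr2 and Celsr3 were higher and Prickle1 and Ptk7 lower in 57SCLC_cell, and Celsr2, Celsr3 and Prickle1 kept these directions in allografts (all genes 23.9% higher and 22.2% lower in cells, 16.1% and 14.2% in allografts), with medians of 0.07 and 0.21. Dvl2, Ccnd1 and Notum share 1504, 2315 and 2037 exon bases with genes on the opposite strand, so the strand limit holds for them too. The feedback genes Dact2 (higher) and Nkd2 (lower) were called in cells, and Nkd2 and Dact3 (both lower) in allografts.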

How the data were processed

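RNA from 15 mouse samples (5 groups of 3) was sequenced after poly-A selection as paired ends. The authors used Rbowtie2 for alignment to GRCm39 and featureCounts with GENCODE release 27 for counting. The values they deposited are signal values, gene counts divided by DESeq2 size factors, here called normalized counts. The strand setting and the handling of reads with several alignments are not given in the sources used here. Whole reads could be recovered from 100% of the values in every sample (tolerance 0.05 reads). Coordinates came from GENCODE release 39 on GRCm39, which held 98.9% of the identifiers, and promoter windows from RefSeq on GRCm38.p6.

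Groups were compared by limma 3.58.1 (R 4.3.3, trended variance) after log2 transformation with a pseudocount of 1. A gene entered a comparison if 3 or more of its samples held 10 or more normalized counts. Fold changes on that scale understate low genes. A group with 0 reads in every library was set to a floor of 3 reads per library, and groups at or under it but not at 0 get no fold. Floors cover counting error only. The p-values measure the spread between these samples, and cultures of a line may be technical replicates. The letters A, B and C of the cell samples did not pair them. Members with a mean of at least 50 in some group and at least 1 pairwise call are given by sample, other members by range, and other pathway genes by lists, at most 5 per list. The members and lists were chosen with earlier results of these data known. Alternatives were edgeR 4.0.16 and DESeq2 1.42.0 on the recovered reads, scaling by TMM or library size, pseudocounts of 0.5 and 5, no filter, an adjusted p threshold of 0.05, all 15 samples in 1 model, the letters as a block, and each sample left out. The fits were tested on simulated data. Python 3.11.15 and matplotlib 3.10.9 were used for tables and figures.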

Additional observations from a re-analysis of the deposited data

Results flagged for a closer look

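For 15 members the difference between 57SCLC and 46LCNEC changed between cells and allografts by the interaction term of limma (adjusted p of at most 0.01 and at least 1 on the log2 scale). Values are the line difference in allografts minus that in cells, so a positive value means that 57SCLC was higher, relative to 46LCNEC, in tumors than in culture. It was negative for Axin2 (-4.62), Wnt9a (-2.32) and Fzd4 (-1.73). Axin2 rose from cells to tumors in 46LCNEC and fell in 57SCLC, and Wnt9a and Fzd4 rose in 46LCNEC.

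Among receptors it was positive for Fzd6 (1.59), Fzd1 (3.46), Fzd2 (4.14) and Fzd7 (4.71), and among ligands for Wnt5a (3.18) and Wnt4 (3.35). The antagonists Dkk3 (5.25), Sfrp4 (5.57), Sfrp2 (6.32) and Sfrp1 (7.85) and the feedback gene Rnf43 (4.74) were low in 57SCLC cells and rose in 57SCLC tumors, while the fibroblast gene sum went from at most 133 to at least 41613, and its part was not tested. For Sfrp1, Sfrp2 and Dkk1 (4.90) a group had at most 3 reads per library, so the fitted value depends on the pseudocount. Dkk1 was at 0 in 3 of the 4 groups, and edgeR gave it an adjusted p of 1.00. The calls of Fzd4, Dkk3, Sfrp1 and Rnf43 were lost when some single samples were left out, and the highest adjusted p was then 0.026 for Fzd4, 0.0143 for Dkk3, 0.0142 for Sfrp1 and 0.0186 for Rnf43. By setting, edgeR lost the calls of Dkk3 (0.0160), Sfrp1 (0.0225) and Rnf43 (0.0167), a pseudocount of 5 that of Sfrp1 (0.0119), TMM scaling that of Fzd4 (0.0107), and no filter those of Fzd4 (0.0122) and Rnf43 (0.0101), each as adjusted p. The rise of Rnf43 in 57SCLC tumors was lost with all 15 samples in 1 model (adjusted p = 0.0138). With 3 samples a group, no sample was tested as an outlier.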

How the results depend on the processing

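Of 208 calls of members, 185 were kept under every other setting and 177 with every sample left out in turn, and none reversed. Of 167 tested values that were not called, 30 were called under some setting and 38 without some sample. The adjusted p threshold of 0.05 uses the same fit and can only add calls, and some of the 30 came from it alone. Leaving out 1 sample gave 28 to 29 calls between the cell lines and 14 to 19 between the allografts. Against Lung it gave 13 to 25 for 46LCNEC_allo (14 without CT3, 13 without CT4), 29 to 30 for 57SCLC_allo, 32 to 34 for 46LCNEC_cell and 31 to 32 for 57SCLC_cell. Against their cells it gave 11 to 18 for 46LCNEC_allo and 12 to 17 for 57SCLC_allo, and for the interaction 11 to 19. The other settings gave 27 to 31, 17 to 24, 21 to 30, 27 to 32, 31 to 36, 30 to 34, 14 to 21, 13 to 17 and 12 to 18 in the same order. With the letters as a replicate block the cell lines differed in 29 members, the 28 and Wif1, and samples of the same letter correlated at 0.09, -0.08 and -0.01 in their deviations from the group means. Scaling by library size shifted the median of all genes by 0.23 (log2) between the cell lines and 0.26 between the allografts, and there the share of higher calls among all genes went from 53.1% to 64.2%. Against Lung it shifted by 0.21 for 57SCLC_allo and 0.23 for 57SCLC_cell, and under TMM by 0.12 for 46LCNEC_cell and 0.11 for 57SCLC_cell. With at most 20378892 reads, 57SCLC_allo is the least deeply read group.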
